A study of Rattus norvegicus with 12 samples.

Results

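The baseline described here is the liver transcriptome of the 4 control rats in a study of 12 Sprague Dawley rats, each measured on its own Affymetrix whole-transcript array. All rats were housed individually under a 12 h light and 12 h dark cycle, with free access to food and water. The controls ate a diet without drug for 7 days. The other rats ate with their food for 7 days naproxen (400 mg/kg diet), an anti-inflammatory drug of the nonsteroidal class, or NO-naproxen (550 mg/kg diet), a form of it that releases nitric oxide, with 4 rats per diet. The labels call the arrays biological replicates and give neither the sex nor the age of the rats, nor the hour or feeding state at which livers were taken. The controls were chosen by their titles alone. Of the 19418 probe sets on each array, 13327 carried 1 gene symbol, and these gave 13215 genes that were ranked by their mean signal.

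The liver is the source of most plasma proteins. Its hepatocytes secrete albumin, clotting factors, complement and lipoproteins, turn ammonia into urea, make and release glucose, build bile acids from cholesterol and oxidise drugs with cytochrome P450 enzymes. Between the hepatocytes lie Kupffer cells, which are resident macrophages, sinusoidal endothelial cells, stellate cells and bile duct cells. Whole-liver RNA mixes them all, so fewer cells of a type and less RNA per cell cannot be told apart. Several liver programmes follow the clock, meals and the pulses of growth hormone. The receptor of that hormone signals through Stat5 to genes such as Cish and Socs2, both feedback inhibitors.

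Signals are given as log2(intensity + 16), where 16 is a constant that damps the noise of dim probe sets, and as mean ± SD over the 4 controls unless stated otherwise. Genes were put in 3 classes by their control mean. The bright class holds the top 5% of genes, which is 661 genes with a mean from 10.39 upward. Its last member was Amd1 at 10.39, and the next gene below was Tgm2 at 10.39. The background range ends at 6.64, the 95th percentile of 970 probe sets for olfactory and vomeronasal receptors, genes of sensory neurons, and it holds 3775 genes (28.6%). Emb was the highest gene inside it and Pou2af2 the next above, both at 6.64. The remaining 8779 genes (66.4%) are called moderate. A signal depends on a gene's probes as well as on its RNA, so the order is one of signals and not of transcript numbers. The ribosomal proteins show this: Rpl23 measured 11.60 ± 0.24 and Rpl4 4.98 ± 0.26, and 10 of 26 genes of this list lay in the background range although every cell makes ribosomes. A mean in that range is therefore not evidence that a gene's RNA was absent.

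Control 2 stood apart from the other 3 arrays. Across all probe sets its log2 values correlated with those of the others at Pearson's r between 0.932 and 0.960, against 0.970 to 0.975 among the other 3. Its median intensity was 98.1, against 113, 118 and 117 in controls 1, 3 and 4, and its interquartile range was 2.37 log2 units against 1.94 to 2.09. The first principal component of the 4 arrays held 66.5% of the variance and set control 2 off from the rest. With 1 array per rat, the rat and its array cannot be told apart. Results on variation are therefore also given without this array.

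The markers fit the labelled tissue. The plasma carrier albumin (Alb, Entrez Gene 24186) measured 13.60, 13.55, 13.68 and 13.63 in controls 1 to 4. The mitochondrial urea cycle enzyme Cps1 (Entrez Gene 497840) measured 13.48, 13.40, 13.48 and 13.38. Cyp7a1 (Entrez Gene 25428), which catalyses the rate-limiting step from cholesterol to bile acids, measured 10.94, 10.97, 10.83 and 11.11 and ranked 397 of 13215. These 3 hepatocyte genes were bright in every control rat, and their SDs were 0.05, 0.06 and 0.11. The Kupffer cell receptor Vsig4 (Entrez Gene 312102) was moderate, at 9.11, 8.97, 8.81 and 8.56. Apoa1 was not analysed here.

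The 20 brightest genes came from several functions of the hepatocyte. Bhmt, which remethylates homocysteine with betaine, was the brightest at 13.56, 13.75, 13.66 and 13.70. Errfi1, a feedback inhibitor of the epidermal growth factor receptor, followed at 13.74, 13.54, 13.59 and 13.61. Alb came after them, and the ranks of these 3 differ by less than their spread between rats. The secreted glycoproteins Ahsg (13.61 ± 0.02) and Fetub (13.56 ± 0.11) came next, then the urea cycle enzyme Ass1 (13.56 ± 0.13), the fatty acid activating enzyme Acsl1 (13.54 ± 0.08) and the lipoprotein ligand Apoe (13.52 ± 0.16). They were followed by the thyroid hormone carrier Ttr (13.46 ± 0.13), Cps1, the hyaluronan-binding protein Itih3 (13.40 ± 0.17), catalase (Cat, 13.39 ± 0.03) and plasminogen (Plg, 13.39 ± 0.08). The list closed with B2m, Fn1, Cth, Serpina1, Adh1c, C4bpa and Gpx1, the last at 13.28 ± 0.22. Neighbours in this order mostly differ by less than their SDs.

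Secreted plasma proteins formed the brightest list. Of 27 measured carriers and inhibitors 26 were bright, against 5% of all genes, and their median was 12.73. The heme scavenger Hpx measured 13.25 ± 0.24, the copper protein Cp 13.20 ± 0.12, the vitamin D carrier Gc 13.13 ± 0.09 and the hemoglobin scavenger Hp 13.11 ± 0.11. The exception was Serpina7, the thyroxine-binding globulin, which lay in the background range at 5.82, 6.13, 5.43 and 5.94. Hormone-related members were lower in the bright class, with Igf1 at 11.66 ± 0.26, angiotensinogen (Agt) at 11.29 ± 0.18 and the IGF carrier subunit Igfals at 10.45 ± 0.48.

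Complement, coagulation and lipoprotein genes were close behind. Of 17 complement and lectin genes 15 were bright and 0 lay in the background range, with C4bpa, C9 and C3 at 13.28 ± 0.13, 13.08 ± 0.14 and 13.04 ± 0.20. Of 20 coagulation genes 15 were bright, led by Plg and the fibrinogen chains Fgb (12.88 ± 0.11), Fgg (12.86 ± 0.14) and Fga (12.64 ± 0.09). The 2 coagulation genes in the background range were F8 at 6.28 ± 0.36 and F13a1 at 5.64 ± 0.20, factors known to be made mainly by endothelial and blood-derived cells. Tissue factor (F3), which starts clotting outside the vessel, was moderate at 7.58 ± 0.18. Of 15 apolipoprotein and lipoprotein genes 12 were bright, from Apoe down to the HDL-associated Apon at 9.68 ± 0.05 in the moderate class. Apob, the structural protein of VLDL, measured 12.90 ± 0.10, and Apoc1 12.89 ± 0.31.

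The acute phase genes divided. Of 21 measured, 15 were bright, among them Crp at 13.22 ± 0.07, Serpina3n at 12.60 ± 0.16 and the alpha-1-acid glycoprotein Orm1 at 11.44 ± 0.34. The 3 in the background range were Socs3, Lcn2 and A2m. A2m, the classical inducible acute phase inhibitor of the rat, measured 5.58, 4.33, 5.71 and 5.11, all under the bound of 6.64. Lcn2, an iron-siderophore trap that inflammation induces, measured 5.70 ± 0.56. The cytokine feedback inhibitor Socs3 measured 5.46, 5.54, 6.78 and 7.16, so that controls 3 and 4 were above the bound and controls 1 and 2 below it. Iron handling genes were mostly bright (8 of 14), with the iron hormone hepcidin (Hamp) at 11.22 ± 0.18, the iron exporter Slc40a1 at 11.14 ± 0.18 and the hepcidin inducer Bmp6 in the background range at 6.36 ± 0.16.

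Ammonia, amino acid and glucose metabolism had no member in the background range. Of 11 urea cycle and ammonia genes 9 were bright. Ass1, Cps1 and the glutamine transporter Slc38a3 (13.04 ± 0.05) were the highest. Otc, the ornithine step of the cycle, was the dimmest of the cycle's enzymes at 10.36, 10.48, 10.36 and 10.18, just under the edge of the bright class in its mean of 10.35 ± 0.12. The ammonia channel Rhbg measured 7.56 ± 0.27. Of 31 amino acid breakdown genes 22 were bright, with Bhmt, Cth (13.31 ± 0.03), the methionine adenosyltransferase Mat1a (13.07 ± 0.10) and the tyrosine pathway enzyme Hpd (12.90 ± 0.15) in front. Serine dehydratase (Sds) was moderate and uneven, at 8.88, 7.84, 9.11 and 8.92, with control 2 the lowest. Of 17 glucose and glycogen genes 11 were bright, with G6pc1 at 12.47 ± 0.33 and Fbp1 at 12.43 ± 0.08, enzymes of glucose release. Pck1, the gluconeogenic enzyme that fasting induces, measured 13.06, 11.86, 11.94 and 12.43, highest in control 1.

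Isozymes typical of other tissues were read on the same arrays and served as a contrast. Of 25 measured, 0 were bright and 6 lay in the background range, against 5% and 28.6% of all genes. Their median of 7.29 was near the 7.38 of all genes ranked, so the list lay at the level of a typical gene. The highest was the neuronal enolase Eno2 at 8.20 ± 0.36. The liver isozymes measured above their counterparts: Fbp1 at 12.43 against Fbp2 at 6.71, the liver pyruvate kinase Pklr at 12.12 against Pkm at 6.53, Arg1 at 11.91 against Arg2 at 7.55, Cpt1a at 10.75 against Cpt1b at 6.65, and the liver fatty acid carrier Fabp1 at 12.67 against Fabp3 at 6.15. The liver glucose transporter Slc2a2 measured 11.98 against 7.32 for Slc2a4. Other isozymes of the list, Cpt1c, Pfkp, Slc2a3 and Slc2a1, were brighter than Cpt1b and Slc2a4 and dimmer than Eno2. As each gene has probes of its own, these pairs are signals side by side and give no ratio of transcripts. Pck2, the mitochondrial partner of Pck1, measured 7.34 ± 0.19, and the liver phosphofructokinase Pfkl 8.50 ± 0.14.

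Lipid genes were bright for both synthesis and breakdown. Of 27 genes of fatty acid and cholesterol synthesis 19 were bright, with the desaturases Scd (13.09 ± 0.06), Fads1 (12.94 ± 0.10) and Fads2 (12.81 ± 0.11) at the top, followed by Thrsp (12.79 ± 0.25), a gene that carbohydrate feeding induces. The dimmest was the mevalonate pathway enzyme Mvd at 7.84 ± 0.26. Of 23 genes of fatty acid oxidation and ketone bodies 12 were bright, with the peroxisomal enzyme Ehhadh at 12.70 ± 0.06 behind Acsl1. The fasting hormone Fgf21 measured 6.79 ± 0.33, near the bound, and the thioesterase Acot1 5.31 ± 0.07, within the background range. Of 23 bile acid genes 16 were bright. Akr1d1, a reductase of bile acid synthesis, measured 12.87 ± 0.06 and the bile salt uptake transporters Slc10a1 and Slco1b2 12.68 ± 0.19 and 12.66 ± 0.26. At the low end of this list were the sterol exporter Abcg8 (7.29 ± 0.99), the nuclear repressor Nr0b2 (7.63 ± 0.51), its partner exporter Abcg5 (7.74 ± 0.66) and the transporter subunit Slc51a (6.68 ± 0.32).

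Drug-metabolising genes covered the whole range of signals. Of 32 cytochrome P450 genes of families 1 to 4, 10 were bright and 5 lay in the background range. Cyp2c22 (13.27 ± 0.10), the epoxygenase Cyp2c23 (13.14 ± 0.27) and the ethanol-oxidising Cyp2e1 (13.09 ± 0.08) were the highest. The inducible Cyp1a1 lay in the background range at 6.17 ± 0.39, while Cyp1a2, which is constitutive in liver, measured 12.06 ± 0.30. Of 36 conjugation and other drug metabolism genes 17 were bright, led by Mgst1 (13.22 ± 0.11), the sulfotransferase Sult1a1 (12.86 ± 0.10) and the epoxide hydrolase Ephx1 (12.31 ± 0.12). Gstp1, a glutathione transferase that is scarce in normal hepatocytes, measured 6.40 ± 0.27.

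P450s whose expression in adult rats differs between the sexes ranged from bright to background. Cyp2c11 and Cyp3a2 were moderate in their means. Cyp2c12, known to predominate in females, was bright at 12.55, 12.52, 12.31 and 12.22, rank 119. Cyp2c11, which predominates in males, measured 6.46, 7.10, 7.98 and 7.26, and Cyp2c13, also known from males, 5.19, 5.59, 5.66 and 5.14. The 4 control rats therefore had Cyp2c12 signals far above those of Cyp2c11 and Cyp2c13, and the last was in the background range in each rat. Cyp3a2, another male-predominant enzyme, measured 6.83, 7.49, 5.84 and 6.73, and the steroid enzyme Hsd3b5 6.52 ± 0.23. A1bg, a secreted protein known to be higher in female rat liver, measured 12.75, 11.80, 12.59 and 11.11, with controls 1 and 3 high. Near-identical members of the Cyp2c and Cyp3a families can share probes, so the values of single members are uncertain, and the labels give no sex to set beside them.

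Among 21 hepatocyte transcription factors 5 were bright and 0 lay in the background range. Hnf4a, a master regulator of hepatocyte genes, measured 11.83 ± 0.20, the stress factor Atf5 11.12 ± 0.13, the fasting factor Creb3l3 11.05 ± 0.36 and Cebpa 10.59 ± 0.22. Foxa3 was the dimmest at 7.20 ± 0.22. Foxa2 was lower in control 1 than in the others, at 8.05, 9.03, 9.43 and 9.28. Of 20 chaperone and stress genes 10 were bright, led by the endoplasmic reticulum proteins Calr (12.85 ± 0.07), Hspa5 (12.74 ± 0.11) and Pdia3 (12.55 ± 0.09), while the stress factor Ddit3 lay in the background range at 6.26 ± 0.17. Of 54 respiratory chain subunits 12 were bright and 8 lay in the background range. Atp5f1b, the catalytic subunit of ATP synthase, led at 12.45 ± 0.30, and Ndufa5 was the dimmest at 5.04 ± 0.73.

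**Figure D1:**
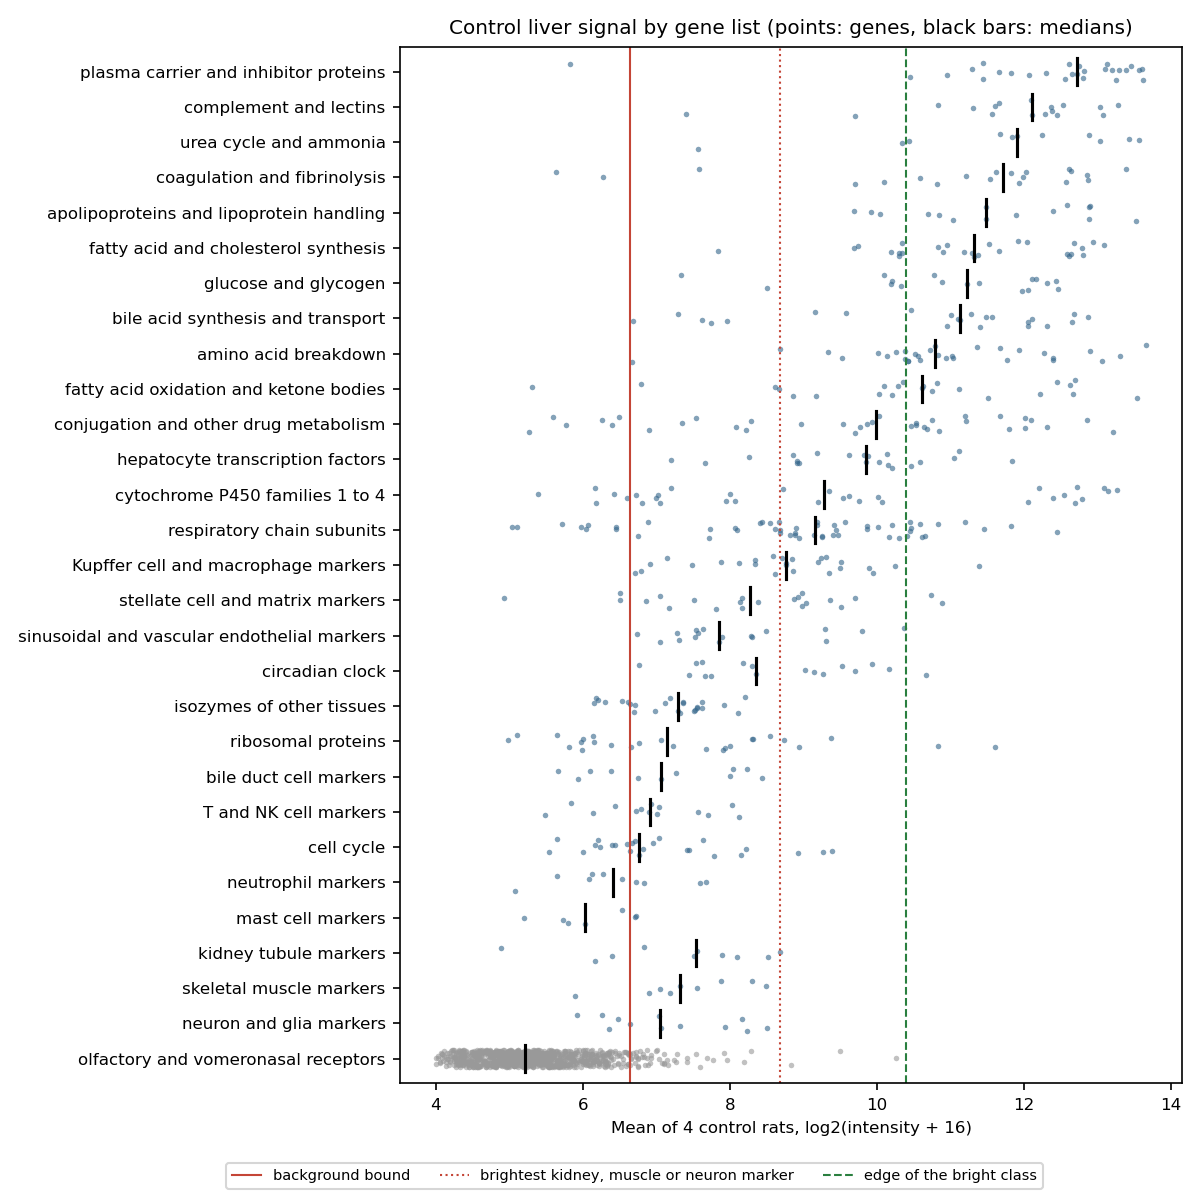
Mean signal of each measured gene over the 4 control rats (x axis, log2(intensity + 16)), by gene list (y axis). Each point is a gene and the black bars are list medians. The solid red line is the background bound (6.64), the dotted red line the brightest marker of neurons, muscle or kidney (8.68), and the dashed green line the edge of the bright class (10.39). Plasma proteins sit furthest to the right with a median of 12.73, and the receptors furthest to the left with a median of 5.22.

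The receptor bound is a loose one for other cell types. Markers of neurons, skeletal muscle and kidney tubules, cells that whole liver should lack or nearly lack, had a median of 7.32 over 29 genes, above the bound. Gfap and Des were left out of them, since stellate cells make both. The highest was the renal anion transporter Slc22a6 at 8.68 ± 0.15, followed by the kidney receptor Lrp2 at 8.52 ± 0.41, the neuronal transporter Slc17a7 at 8.51 ± 0.25 and the muscle troponin Tnnt3 at 8.50 ± 0.10. Of all genes 2752 (20.8%) had a control mean above 8.68, against 9440 outside the background range. This stricter level was chosen after the values were seen, and marker lists are given against both.

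Kupffer cell markers stood highest among the non-hepatocyte lists. Of 26 macrophage markers 0 lay in the background range and 15 were above 8.68, with a list median of 8.77. The lipopolysaccharide co-receptor Cd14 was the only bright one, at 11.54, 11.04, 11.51 and 11.49, with control 2 the lowest. Hepatocytes are known to make Cd14 as well. Clec4f, a lectin restricted to Kupffer cells in rodents, measured 10.52, 10.23, 10.19 and 10.07, and the secreted macrophage protein Cd5l 9.95 ± 0.21. The scavenger receptors Msr1 (9.51 ± 0.46) and Marco (9.35 ± 0.42) and the mannose receptor Mrc1 (9.50 ± 0.34) followed. Timd4 (7.49 ± 0.40), Folr2 (6.91 ± 0.36) and Tyrobp (6.70 ± 0.20) lay between the bounds. The summed intensity of the 26 markers ranged from 12594 to 16917 over the controls.

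Endothelial and stellate markers were lower. Of 17 endothelial markers 0 were in the background range and 4 were above 8.68: the Fc receptor Fcgr2b, which sinusoidal endothelium uses to clear immune complexes, at 10.63, 10.61, 10.26 and 9.96, Ehd3 at 9.80 ± 0.39, the nuclease Dnase1l3 at 9.31 ± 0.31 and Oit3 at 9.29 ± 0.14. Markers of larger vessels were dimmer than these, with Vwf at 7.53 ± 0.33 and Nos3 at 7.05 ± 0.13. So were other members: the sinusoidal marker Clec4g lay between Vwf and Nos3, and Wnt2 was the dimmest of the list at 6.74. Of 22 stellate and matrix markers 10 were above 8.68 and 3 in the background range. The matrix proteins Sparc (10.99, 10.96, 10.82 and 10.79) and Bgn (10.73 ± 0.14) were bright. Reln (9.37 ± 0.42) and the retinol esterifying enzyme Lrat (8.87 ± 0.36), which mark quiescent stellate cells, were moderate. Other list members were moderate at like signals: Ecm1 and Col3a1 lay above Reln, and Lox, Col1a2 and Pdgfrb between Reln and Lrat. Timp1 (6.50 ± 0.29), Thy1 (6.50 ± 0.40) and Lum (4.93 ± 0.29) lay in the background range. Quiescent and matrix genes were thus not separated by signal.

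Of 11 bile duct markers 0 were above 8.68, against 20.8% of all genes, while 7 were moderate and 4 in the background range. The brightest was Prom1 at 8.44. Sctr, Krt8, Aqp1, Cldn7 and Krt18 lay between it and the duct keratin Krt19, at 6.75 ± 0.20, and Epcam measured 5.93 ± 0.16. The count above 8.68 was also 0 of 14 for T and NK cells, 0 of 4 for B cells, 0 of 10 for neutrophils and 0 of 7 for mast cells. Of the T and NK markers 10 of 14 were moderate and 4 in the background range, from the co-receptor Cd4 at 8.12 ± 0.40 down to the T cell receptor subunit Cd3d at 5.49 ± 0.05. Of the neutrophil markers 4 of 10 were moderate and 6 in the background range, from the collagenase Mmp8 at 7.67 ± 0.28 down to S100a8 at 5.08 ± 0.13. At this signal level small numbers of such cells were not detectable. Of 6 red cell genes the beta globin Hbb-b1 (10.21 ± 0.21) and the anion exchanger Slc4a1 (9.36 ± 0.35) exceeded 8.68. Of 8 fat cell genes the lipid droplet protein Cidec did, at 9.28 ± 0.34. Of 13 pancreas genes the acinar factor Ptf1a did, at 9.77 ± 0.26. The pancreas list had 10 moderate members and 3 in the background range, with a median of 7.34.

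Of 959 receptor genes, 49 had a mean above the bound. The brightest was Or2v1 at 10.47, 10.35, 9.97 and 10.28, followed by Or8h7b, whose values are given with the variation between rats. Or2v1 was high in all 4 rats, so that it differs from Or8h7b in that respect.

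Genes of cell division had a median of 6.76, against 7.38 over all genes ranked. Of 25 cell cycle genes 0 were bright and 9 lay in the background range, against 5% and 28.6% of all genes. The proliferation marker Mki67 measured 6.01 ± 0.44 and the cyclin Ccnb1 6.23 ± 0.55. The highest was the cyclin Ccnd1 at 9.39 ± 0.33. Immediate early genes, which respond within minutes to stress and handling, had 1 bright member of 24, the phosphatase Dusp1 at 11.14 ± 0.22. Fos measured 7.18 ± 0.16, Egr1 7.66 ± 0.10 and Atf3 6.11 ± 0.29. Of 23 interferon-induced genes 1 was bright, Ifi27 at 11.34 ± 0.35, and 6 lay in the background range, among them Isg15 (5.70 ± 0.31) and Ifit1 (5.31 ± 0.40). In lists this short the counts given here lie near the shares of all genes, and nothing is read from them.

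The clock genes were moderate with 1 bright member of 17, near the 5% of all genes. It was the repressor Bhlhe40 at 10.66 ± 0.17. Bmal1, the partner of Clock in the activating arm, measured 10.16 ± 0.17. Of the genes that Bmal1 and Clock drive, Bhlhe40 was the brightest. Dimmer ones were Dbp at 7.45 ± 0.20, Nr1d1 at 7.67 ± 0.56, Tef at 7.62 ± 0.22 and Per3 at 6.77 ± 0.26. Per1 and Per2, also among them, are given with the variation between rats.

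Most genes varied little between the control rats. Over the 9440 genes above the background bound the median SD was 0.26 log2 units and the 90th percentile 0.49, and 835 genes (8.85%) had an SD above 0.5. Bright genes had a median SD of 0.18 and moderate genes of 0.27. The least variable bright gene was Ahsg at 13.62, 13.59, 13.61 and 13.64, a range of 0.05. The beta-oxidation subunit Hadhb, Cat, the squalene synthase Fdft1, Cth, the sterol enzyme Sc5d, the growth factor activator Hgfac, the adenosine kinase Adk, the vitamin C transporter Slc23a1 and the ATP synthase subunit Atp5pb followed, all with SDs up to 0.04.

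**Figure D2:**
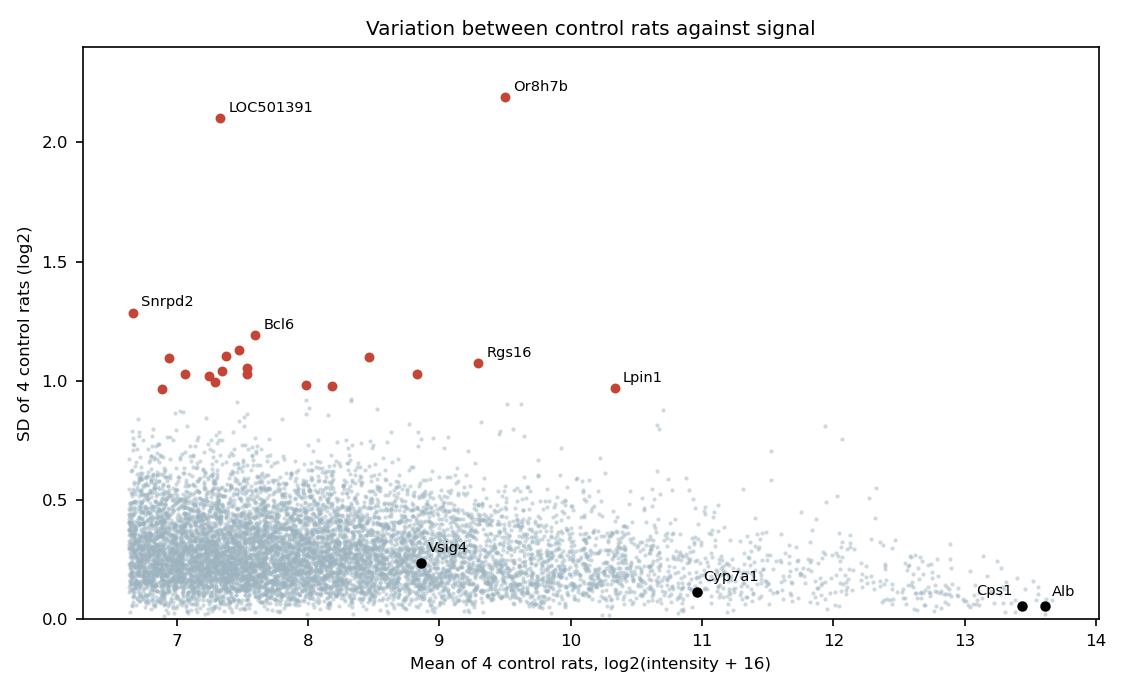
SD between the 4 control rats (y axis, log2 units) against their mean signal (x axis, log2(intensity + 16)) for the 9440 genes above the background bound. The 20 genes with the largest SD are red and 4 marker genes black. Or8h7b and LOC501391, at SDs of 2.19 and 2.10, lie far above all others, and the markers Alb and Cps1 near the floor.

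The variable class is the top 5% by SD of the genes above the bound, 472 genes, and its last member was Adh6 and the next gene below Hltf, both at an SD of 0.56. It was chosen by the same values that are described here, so that its counts carry no test. Of 18 growth hormone and sex-biased genes above the bound 6 were in it, and of 21 feeding-responsive genes 7, against 5% of all genes above the bound. It held 0 of 17 complement genes, 0 of 18 coagulation genes, 0 of 11 urea cycle genes, 0 of 26 macrophage, 0 of 17 endothelial and 0 of 19 stellate markers. In lists this short a count of 0 lies near the 5% of all genes, and nothing is read from it. Without control 2 it held 3 macrophage, 2 endothelial and 1 stellate marker, and without control 4 it held 1 coagulation gene. Without control 1 the feeding-responsive count was 3, and without control 2, 3 or 4 it lay between 6 and 8. For the growth hormone genes it was 4 without control 1 or control 3, 6 without control 2 and 5 without control 4.

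The gene with the largest SD was Or8h7b (Entrez Gene 366100), annotated as an olfactory receptor. It measured 10.33, 6.23, 10.80 and 10.65 in controls 1 to 4, with control 2 below the bound of 6.64. The second was LOC501391 (Entrez Gene 501391), an uncharacterised locus, at 8.03, 4.21, 8.70 and 8.39. Both were low in control 2 alone, and their SDs were 2.19 and 2.10 with it and 0.24 and 0.33 without it. In the naproxen rats 1 to 4 Or8h7b measured 5.64, 8.44, 6.26 and 10.19, and LOC501391 4.04, 6.30, 4.95 and 7.74. In the NO-naproxen rats the values were 6.85, 5.59, 10.38 and 5.51 for Or8h7b and 4.81, 4.56, 8.29 and 4.74 for LOC501391. The 2 genes were thus high together in naproxen 4 and NO-naproxen 3 as well.

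These were the arrays of high median intensity. At the largest gap between array medians, 5 arrays (controls 1, 3 and 4, naproxen 4 and NO-naproxen 3) had medians from 113 to 118 and interquartile ranges from 1.94 to 2.20, and the other 7 had medians from 89.8 to 103 and interquartile ranges from 2.22 to 2.62. This split was made after seeing the data. Or8h7b was at least 10.19 on each of the 5 and at most 8.44 on each of the 7. Ankrd22, the basement membrane protein Nid2, Ccdc33, the TGF-beta binding protein Ltbp3 and the protease Tmprss3 also had all 5 arrays above all 7, which made 7 of the 20 most variable genes with LOC501391. Among the variable class this order held for 194 genes (41.1%), and among all genes above the bound for 911 (9.65%). The reverse order, all 5 below all 7, held for 1 variable gene and for 31 of all genes above the bound. The split holds control 2 apart, as did the choice of these genes. Among drug-fed rats, whose values did not choose the variable class but were in view when the split was made, naproxen 4 and NO-naproxen 3 lay above the other 6 arrays for 207 variable genes (43.9%) against 1285 genes above the bound (13.6%). The part of array signal in the variation of these genes was not tested beyond these counts.

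A second set of variable genes was led by control 1. The G protein regulator Rgs16 (Entrez Gene 360857) measured 10.74, 9.49, 8.41 and 8.55. Zbtb16 (Entrez Gene 353227), a transcription factor that glucocorticoids induce, measured 9.63, 7.90, 7.57 and 7.63. The phosphatidate phosphatase Lpin1 measured 11.73, 10.27, 9.64 and 9.71. In each of them control 1 was the highest and control 2 the next, though for Zbtb16 control 2 was close to the other 2 rats. The clock gene Per1 was also highest in control 1, at 9.08 against 7.05, 7.29 and 6.73, as was the zinc finger gene Zfp354a, at 9.16 against 7.09, 6.79 and 6.87.

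Some other members of the feeding, acute phase and clock lists also had control 1 at one end. They are examples, and the share of members or of all genes with this order was not counted. The medians of the feeding list in controls 1 to 4 were 9.81, 10.31, 9.80 and 9.94, which did not set control 1 apart. Igfbp1, a fasting-induced carrier that binds IGFs, measured 11.78, 10.72, 9.63 and 10.69. The uridine enzyme Upp2 measured 9.38, 7.93, 7.90 and 8.01. The interleukin-6 receptor Il6r measured 10.98, 9.76, 9.61 and 9.37. Control 1 was again the highest for all of these, while it was the lowest for Srebf1, the insulin-induced lipogenic factor, at 10.69, 11.65, 11.71 and 12.05. The lipogenic target Pnpla3 was likewise lowest in control 1, at 8.87, 10.07, 10.19 and 9.86. For the clock repressor Nr1d1 control 1 was highest, at 8.49, 7.42, 7.25 and 7.51. For Per2 it was lowest, at 7.15, 8.60, 8.55 and 8.41. Whether hour, meals or handling differed between these rats is not given in the labels and was not tested.

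**Figure D3:**
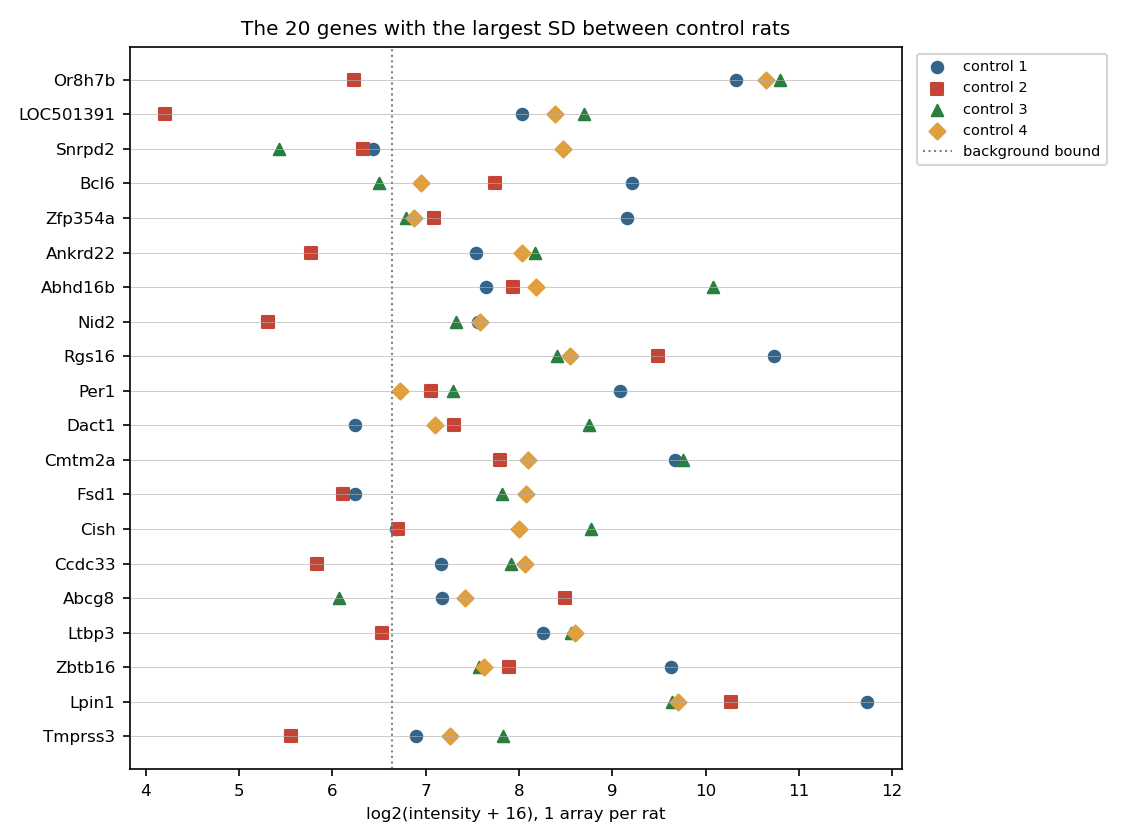
Signals of the 20 genes with the largest SD between control rats, each rat as its own symbol (x axis, log2(intensity + 16); y axis, genes in falling order of SD; dotted line, background bound). Control 2 lies lowest for 9 of the 20 genes and control 3 for 7. Control 3 lies highest for 8, control 1 for 6 and control 4 for 5. Over all genes above the bound control 4 was lowest for 33.5%, control 2 for 32.8%, control 3 for 21.7% and control 1 for 12.0%. The like shares for the highest were not counted.

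Genes of growth hormone signalling varied in opposite order. Bcl6 (Entrez Gene 303836), a repressor that binds many Stat5 sites in liver, measured 9.21, 7.74, 6.50 and 6.95. Cish (Entrez Gene 83681), the Stat5-induced feedback inhibitor, measured 6.68, 6.70, 8.77 and 8.0. Controls 1 and 2 were thus high for Bcl6 and low for Cish, and controls 3 and 4 the reverse. Socs2, another Stat5 target, was highest in control 2, at 9.17, 10.63, 9.18 and 8.88, and so did not share the order of Cish. In the 8 drug-fed rats, which played no part in choosing the pair, Bcl6 and Cish had Pearson's r = -0.67 (2-sided exact permutation p = 0.0843, and 0.0843 after Benjamini-Hochberg adjustment over the 2 pairs examined) and Spearman's rho = -0.57 (exact permutation p = 0.151, adjusted 0.151). Without the 2 rats farthest from the median of Bcl6, r was -0.77. Within the 4 naproxen rats r was -0.91, and within the 4 NO-naproxen rats 0.54. The opposite order seen in controls therefore did not pass the test in the other rats, and its sign differed between their diets.

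The stretch of 250 bases before the start of Cish is shown because the gene is a standard target of Stat5 and was among the most variable in controls. It lies at chr8:116850719-116850968 on the plus strand of GRCr8, from RefSeq's gene starts. Capitals mark the motif TTCNNNGAA, the palindromic core that Stat5 dimers bind.
Cish: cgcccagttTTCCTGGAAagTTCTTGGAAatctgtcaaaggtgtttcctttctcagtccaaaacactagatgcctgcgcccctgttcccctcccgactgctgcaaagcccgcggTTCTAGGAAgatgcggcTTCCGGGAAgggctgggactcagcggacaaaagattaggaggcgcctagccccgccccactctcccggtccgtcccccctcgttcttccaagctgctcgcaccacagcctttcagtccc
The motif occurs 4 times, in 2 close pairs, with the first from 241 to 233 bases before the start and the last from 119 to 111. As a palindrome it reads alike on both strands. Among 33469 RefSeq gene starts 7.67% of windows of the same length hold it at least once and 2 windows (0.00598%) at least 4 times. Of the 20 most variable genes 18 had such a window and 4 held the motif: LOC501391, Zfp354a, Cmtm2a and Cish. A match is a description of the letters and not a measured site.

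The sterol exporter pair Abcg5 (Entrez Gene 114628) and Abcg8 (Entrez Gene 155192) varied together. The proteins form a dimer that moves plant sterols and cholesterol into bile. Abcg5 measured 7.37, 8.63, 7.15 and 7.80 in controls 1 to 4, and Abcg8 7.17, 8.50, 6.07 and 7.43. Both were highest in control 2 and lowest in control 3. In the 8 drug-fed rats, not used to choose the pair, the 2 genes had Pearson's r = 0.988 (2-sided exact permutation p = 7.4e-05, adjusted 0.000148 over 2 pairs) and Spearman's rho = 0.976 (exact permutation p = 0.000397, adjusted 0.000794). Without the 2 rats farthest from the median of Abcg5, r was 0.973. It was 0.976 within the naproxen rats and 0.992 within the NO-naproxen rats.

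The 2 genes are read in opposite directions from neighbouring starts, and the 205 bases between the starts are shown because both share them. They lie at chr6:15717731-15717935 of GRCr8 and are written on the plus strand. Capitals mark AGATAA, a motif that GATA factors bind.
Abcg5 and Abcg8: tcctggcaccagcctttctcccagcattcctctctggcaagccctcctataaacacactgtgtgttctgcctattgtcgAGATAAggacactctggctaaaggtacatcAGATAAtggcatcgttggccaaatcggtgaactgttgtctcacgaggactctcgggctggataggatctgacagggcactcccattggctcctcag
The motif was searched on both strands and occurs 2 times. Windows of this length before RefSeq gene starts hold it at least once in 8.35% of cases and at least 2 times in 0.604%. The dimerisation of the proteins, the shared stretch and the joint variation are given side by side, and a link between them was not tested.

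**Figure D4:**
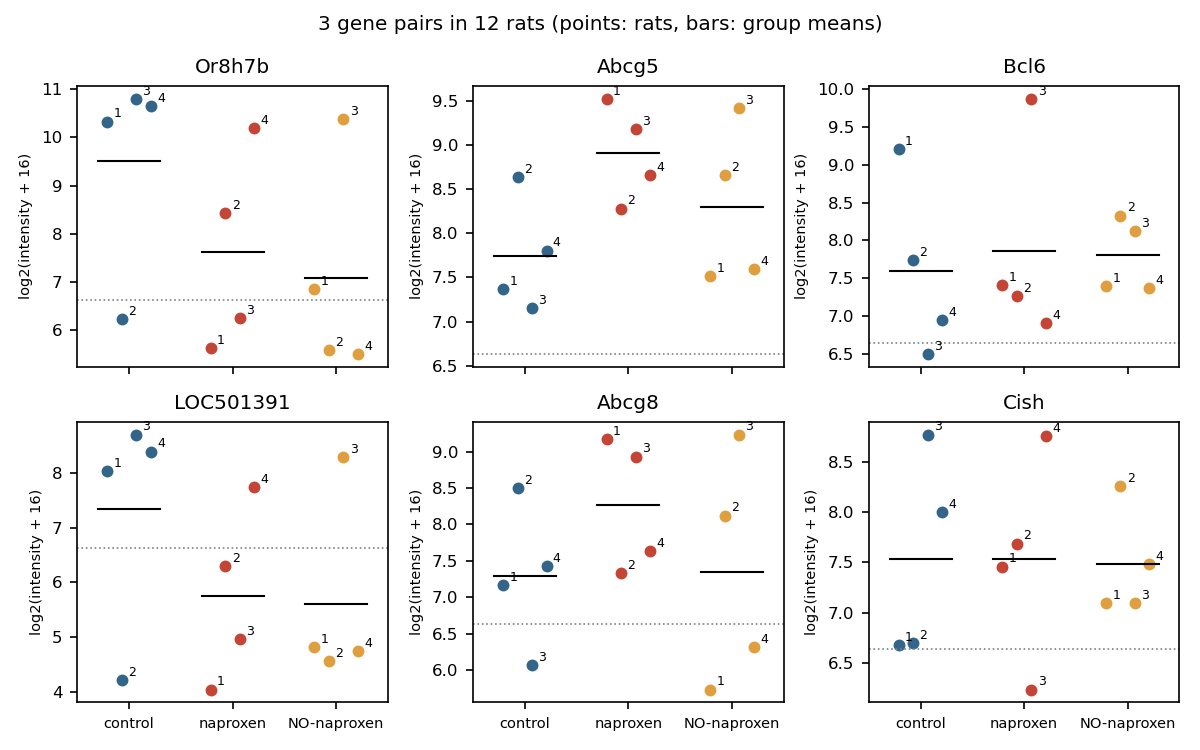
Signals of 3 pairs of genes in all 12 rats (y axis, log2(intensity + 16); x axis, diet). Each point is a rat with its replicate number, the bars are group means and the dotted line is the background bound. Or8h7b and LOC501391 are high in the same 5 rats, Abcg5 and Abcg8 follow each other in each diet, and Bcl6 and Cish run in opposite order in the controls.

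Of the interferon-induced genes above the bound 3 of 17 were in the variable class, against 5% of all genes above the bound. The count was 5 without control 3 and 1 without control 4, and nothing is read from it. Mx2 measured 9.96, 9.88, 9.25 and 8.17, Ifi44 8.23, 8.66, 7.45 and 7.36, and Oas1a 8.31, 8.45, 7.53 and 7.19. For all 3 genes, controls 1 and 2 were above controls 3 and 4. The medians of the whole list in controls 1 to 4 were 8.31, 8.45, 7.53 and 7.37. The share of list members or of all genes with this order was not counted. Krt8, a keratin of bile ducts and hepatocytes, had the same order at 8.80, 8.49, 7.43 and 7.45. Among genes in the background range, which the ranking of SDs leaves out, RT1-CE2, a histocompatibility gene, measured 4.89, 4.95, 8.83 and 5.43. Control 3 alone was above the bound, and the drug-fed rats measured between 4.66 and 5.72. Genes of this complex differ between rats and can share probes, so the value is uncertain. The pancreatic enzyme Cpa1 was high in control 1 alone, at 9.66 against 7.58, 7.98 and 8.09.

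The most variable genes of the controls were less variable in the other groups. The median SD of the 20 was 1.05 in controls, which chose them, 0.62 in naproxen rats and 0.68 in NO-naproxen rats, against 0.25 and 0.29 over all genes above the bound. They therefore stayed above the typical gene in rats that played no part in the choice. After quantile normalization 18 of the 20 remained among the 20 most variable, and without control 2 11 did. Of the 472 variable genes 352 remained after quantile normalization and 154 without control 2. The number of genes with an SD above 0.5 was 281 without control 2, against 835 with all 4.

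The controls were also set beside the drug-fed groups, since the series design names both contrasts. In the limma fit of all 12 arrays 0 of 19418 probe sets passed an adjusted p under 0.05 for naproxen against control or for NO-naproxen against control, and 2458 (12.7%) and 2011 (10.4%) had an unadjusted p under 0.05. These were 613 higher (3.16%) and 1845 lower (9.5%) with naproxen, and 1067 higher (5.49%) and 944 lower (4.86%) with NO-naproxen. The split moved with the scaling: median centring gave 1447 higher and 1200 lower with naproxen and 1634 and 814 with NO-naproxen, and quantile normalization gave 1185 and 1363 with naproxen. Without control 2 the fit called 2 and 4 probe sets, and without control 1 it called 3 and 0. Both comparisons share the 4 controls. Of the 20 brightest genes 0 had an unadjusted p under 0.05 in either, and their log2 differences from control lay between -0.14 and 0.14. Of the 20 most variable genes 4 did with naproxen (3 higher and 1 lower) and 5 with NO-naproxen (4 higher and 1 lower), none of them after adjustment. Controls 1, 3 and 4 were arrays of high median intensity, but of the drug-fed arrays only naproxen 4 and NO-naproxen 3 were. Diet and array signal are thus partly confounded in both contrasts. The gene lower with naproxen, Ankrd22, followed the array split, and the one lower with NO-naproxen, Cmtm2a, did not.

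For some of the control 1 genes the drug-fed rats lay beyond the other 3 controls. Rgs16 measured 11.46, 11.69, 12.09 and 10.75 with naproxen and 10.96, 11.47, 10.47 and 11.36 with NO-naproxen. Its log2 difference from control was 2.20 ± 0.42 (SE) with naproxen and 1.77 ± 0.42 with NO-naproxen in the limma fit, with adjusted p of 0.381 and 0.468. Without control 1 the difference with naproxen was 2.68 and passed the limma test (adjusted p = 0.0194). That with NO-naproxen was 2.25 and did not pass (adjusted p = 0.152). Control 1 was singled out as the highest control for this gene, so leaving it out had to enlarge the difference, and nothing is read from the pass. Without control 2, 3 or 4 the naproxen difference was 2.27, 1.91 and 1.95, and none of these passed. Control 1, at 10.74, lay just below the lowest naproxen rat and inside the NO-naproxen range, while controls 2, 3 and 4 were below all 8 drug-fed rats. Zbtb16 in drug-fed rats ranged from 9.09 to 10.61, and control 1 at 9.63 lay inside that range, as it did for Upp2 (9.14 to 10.84) and Nr1d1 (8.09 to 10.53). The other 3 controls lay below the range for each of these genes.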

How the data were processed

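Liver RNA was depleted of ribosomal RNA, biotin-labelled and hybridised to whole-transcript arrays, 1 per rat, per the labels' protocols. The authors deposited probe set intensities on a linear scale, and per the submitters' processing notes Affymetrix Expression Console 1.1.1 and build rn4 were used. The summary of probes and the normalization are steps not given in the sources used here. Levels were log2(intensity + 16), which understates differences between dim probe sets.

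Genes are those with 1 symbol in the platform annotation. The 13232 probe sets matched to RefSeq by Entrez identifier kept their symbols, 620 probe sets with several symbols and 5471 with none were left unnamed, and the brightest probe set in controls stood for each of 102 genes with several. Of the gene lists, 29 are drawn in the plot of signals by list. Members, lists and some alternatives were chosen with earlier results of these data known. The patterns of the receptor and ribosomal lists were corrected after the values were seen. Genes were named by a rule: the 20 highest means, the 20 largest SDs (also after quantile normalization), the 10 smallest SDs among bright genes, 5 markers, and per list up to 8 brightest, 4 dimmest and 4 most variable members. Outside it, and chosen after their values were seen, are RT1-CE2, the list members Ccnb1, Cpt1a, Egr1, Fbp2, Fos, Gc, Gstp1, Lrat, Pkm, Serpina3n, Timd4 and Vwf, and the genes at class edges.

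Diets were compared with limma 3.58.1 (R 4.3.3, lmFit and eBayes, 2-sided) in 1 fit of 12 arrays with no covariate, with Benjamini-Hochberg adjustment over 19418 probe sets. The replicates are separate rats only as far as the labels say so, and p-values measure the spread between these arrays. The SD of 4 arrays is itself imprecise, since their number limits the precision. Both scripts were tested on simulated data. Titles supplied the replicate numbers, which the labels do not link to litters or days. Python 3.11.15, pandas 2.3.3 and matplotlib 3.10.9 were used.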

Additional observations from a re-analysis of the deposited data

Results flagged for a closer look

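A control rat was marked where its gap to the nearest of the other 3 was so large a share of the range of the 4 that it exceeded Dixon's critical value at the 95% level. Chance marks about 1 gene in 20, and among all genes above the background bound 4.92% were marked. Of the 218 genes examined, those named in the text and the rest of the 20 brightest and 20 most variable, 22 were marked (10.1%), a set that holds the most variable genes by choice.

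Control 2 was low for 10 genes. It measured 6.23 for Or8h7b, 4.21 for LOC501391, 5.31 for Nid2 and 6.53 for Ltbp3, all among the 20 most variable. It also measured 6.03 for Pou2af2, 11.04 for Cd14, 11.61 for Cyp1a2, 12.40 for the bile salt transporter Slc10a1 and 12.00 for the ATP synthase subunit Atp5f1b. For B2m it measured 13.25 against 13.39 in the others, a small gap beside a very narrow spread. It was high for Cd3d alone, at 5.56, within the background range.

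Control 1 was high for Upp2 at 9.38, Zbtb16 at 9.63, Zfp354a at 9.16, the glucose transporter Slc2a2 at 12.24 and Amd1 at 10.80. It was low for the clock gene Per2 at 7.15 and for Mvd at 7.46. Control 3 was low for Akr1d1 at 12.77 and for the clock output gene Tef at 7.29, and high for RT1-CE2 at 8.83. Control 4 was high for the bile duct keratin Krt19 at 7.05.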

How the results depend on the processing

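The signal classes moved little with the constant, the normalization or the array left out, and the variation between rats moved most. The background range held 7270 genes with its bound at the 99th percentile of the receptors and 10463 with the bound at the brightest neuron, muscle or kidney marker, an alternative added after seeing the data. A bright class of 10% held 1322 genes by construction. With a constant of 64, 274 genes had an SD above 0.5 and 13 of the 20 most variable genes were shared. With no filter on dim genes, which adds genes, the counts were 1305 and 13. Median centring kept 275 of the 472 variable genes. Leaving out 1 control in turn gave 281 to 1417 genes with an SD above 0.5, 11 to 16 shared genes of the 20 and 154 to 384 shared variable genes, each lowest without control 2. For the drug contrasts, leaving out 1 array gave 0 to 3 called probe sets with naproxen and 0 to 4 with NO-naproxen, and 1124 to 4742 and 724 to 4529 at an unadjusted p under 0.05. Testing only brighter probe sets, fewer in number, gave 1291 with naproxen. With the replicate number as a block limma called 0 probe sets in both contrasts, with 2556 and 2249 at an unadjusted p under 0.05. The numbers share no origin in the labels. Deviations of same-numbered arrays correlated between -0.38 and 0.33 for naproxen and between 0.04 and 0.48 for NO-naproxen, and arrays of unlike number were not compared. The fit without the block also called 0 probe sets, so the calls cannot decide whether the numbers pair rats. Except where an alternative's construction is named, the cause was not tested. Dim signals limit what can be read of rare cell types.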
